A study of Mus musculus with 8 samples.

Results

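Nr2f1, Nr2f2 and Nr2f6 are the 3 mouse genes for the COUP-TF nuclear receptors, a family of DNA-binding transcription factors. They were found by gene identifier among the 15538 genes measured by bulk RNA sequencing of primary neurospheres, which are floating cultures of neural stem cells, from embryonic mouse brain. The family was chosen by a measured value, the strong difference of Nr2f2 between genotypes, so the genotype differences of the 3 genes are given here as a description with no test. Nr2f2 stood at 228 ± 25.5 normalised reads in wild-type libraries and at 30.2 ± 6.51 in knockout-labelled libraries (mean ± SD, n = 4 each), a level 7.55-fold lower. Nr2f1, the most abundant of the 3, had nearly the same mean in both groups, and Nr2f6 had a mean 1.77-fold higher in the knockout-labelled libraries.

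By label, 4 libraries are wild type (Phf23+/+) and 4 are homozygous Phf23 knockout (Phf23-/-), and no other allele, treatment or agent is named. The Phf23-/- libraries are called knockout-labelled here. Phf23 codes for a PHD-finger chromatin protein. The study asked how loss of Phf23 alters the differentiation of these cells. The sources used here do not give strain, age of the embryos or the form of the Phf23 allele, nor do they say whether replicates were separate cultures or animals, so every spread and p-value covers only these libraries and may be technical.

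COUP-TFs bind DNA through a pair of zinc fingers, recognise direct repeats of the AGGTCA half-site as dimers with themselves or with retinoid X receptors, and mostly act as repressors through corepressors. They are called orphan receptors because no natural ligand is established for them. In the developing brain Nr2f1 (COUP-TFI) patterns the cortex into areas, Nr2f2 (COUP-TFII) marks the caudal ganglionic eminence and its interneurons, and both have been tied to the timing of the switch of neural stem cells from making neurons to making glia. Outside neural cells Nr2f2 is known for venous endothelial identity, and Nr2f6 (EAR2) is the more distant relative, best studied in lymphocytes.

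The first 60 coding bases of the zinc finger region are shown, which end just before the first finger does. This region is more alike among the 3 proteins than the whole sequence, and so bears on whether reads can be assigned to 1 paralog. The bases were read from GENCODE M21 transcripts on mm10 and are given 5′ to 3′ on the coding strand, with capitals where a base is unlike Nr2f2. The stretches lie in exon 1 of each gene, all on the minus strand, at chr13:78198268-78198327 for Nr2f1, chr7:70360036-70360095 for Nr2f2 and chr8:71381044-71381103 for Nr2f6.
Nr2f1: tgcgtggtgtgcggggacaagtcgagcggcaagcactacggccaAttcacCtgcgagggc
Nr2f2: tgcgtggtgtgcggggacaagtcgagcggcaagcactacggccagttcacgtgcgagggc
Nr2f6: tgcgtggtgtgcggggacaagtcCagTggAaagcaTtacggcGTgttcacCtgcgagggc
Nr2f1 differed from Nr2f2 at 2 of these 60 bases and at 0 residues, and Nr2f6 differed from Nr2f2 at 7 bases and 1 residue. Over the whole translated coding sequence, Nr2f1 and Nr2f2 (420 and 414 residues) were identical at 90.6% of aligned residues, against 67.4% for Nr2f1 and Nr2f6 and 69.2% for Nr2f2 and Nr2f6 (390 residues). Over the 56 residues of both fingers, identity was 98.2%, 89.3% and 91.1% in the same order.

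The longest run of coding bases shared by Nr2f1 and Nr2f2 was 59 nt, and the run each shared with Nr2f6 was 23 nt. Of all 50-base words in the annotated exons, 10 occurred in both Nr2f1 and Nr2f2, which was 0.196% of those of Nr2f1 and 0.117% of those of Nr2f2, and 0 were shared with Nr2f6. Reads confined to the 59-nt run, which begins upstream of the printed bases, could thus be split between Nr2f1 and Nr2f2 by the counting. The sources used here do not describe the counting. GENCODE lists 6, 6 and 8 transcripts for Nr2f1, Nr2f2 and Nr2f6, including coding models of Nr2f1 (273 and 263 residues) and of Nr2f2 (281 residues) that lack the finger region. The gene-level values do not separate these forms.

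Recovered depth ran from 15647304 to 19462516 reads per library, and a value of 1 normalised read is close to 1 sequenced read because size factors ran from 0.889 to 1.07. Phf23 itself went against the labels: its mean was 798 ± 85.4 in wild type and 1481 ± 108 in the knockout-labelled libraries, with no overlap (limma-trend adjusted p = 0.000581), so every direction below rests on the labels as deposited. All 10 neural stem cell markers were measured and their summed level ran from 137907 to 147342 in wild type and from 158830 to 200717 in the knockout-labelled libraries. The largest parts of that sum were Vim (means 67797 and 86985) and Fabp7 (26984 and 41845). Over all genes, limma-trend at a false discovery rate (FDR) under 0.05 called 4593 genes, 29.6% of those tested, of which 2301 were higher (14.8%) and 2292 lower (14.8%) in the knockout-labelled libraries. Without wild type 1, wild type 2 or knockout-labelled library 1 the calls were 2189, 2106 and 1884. Of the 10 stem cell markers, limma-trend over all 8 libraries called 3 higher (Fabp7, Hes5 and Msi1) and 0 lower. Sox2, Vim and Prom1 were not called, with log2 fold changes of 0.41, 0.35 and 0.20. Nor were Pax6 (0.09), Sox9 (-0.003), Slc1a3 (-0.008) and Nes (-0.11). The libraries also differed in how their levels depended on transcript length, given below as a slope in log2 units per doubling of the longest annotated transcript. Of the 10 stem cell markers, limma-trend with this slope as a covariate called 1 higher and 0 lower (4 higher at an unadjusted p under 0.05). It called 5 higher and 0 lower with a trend in length and GC content subtracted.

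Nr2f2 (ENSMUSG00000030551, mm10 chr7:70351944-70366735, minus strand) had 201, 262, 219 and 230 normalised reads in wild-type libraries 1 to 4. Knockout-labelled libraries 1 to 4 had 29.8, 28.4, 39.1 and 23.5. All 4 wild-type values lay far above all 4 knockout-labelled values, and the groups did not overlap. The log2 fold change from wild type to the knockout-labelled libraries was -2.89 ± 0.186 (SE) on the log2(value + 1) scale.

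The low values of Nr2f2 rest on few reads. The recovered reads were 205, 273, 195 and 237 in wild type. In the knockout-labelled libraries they were 31 (exact Poisson 95% interval 21.1 to 44.0), 27 (17.8 to 39.3), 42 (30.3 to 56.8) and 24 (15.4 to 35.7), intervals that cover counting error only. The 4 intervals overlap one another, and all lie below the lowest wild-type interval, which began at 169. Reads were thus still counted for Nr2f2 in every knockout-labelled library. What part of them came from the run shared with Nr2f1, or from a noncoding gene that overlaps Nr2f2 (given below), was not tested. In bulk RNA, fewer cells that express a gene and less RNA per cell cannot be told apart, which holds for all genes given here.

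Among the 11558 genes whose mean reached 50 normalised reads, 0 had a lower log2 fold change than Nr2f2 and 0 had a larger one in either direction. This rank describes the value by which the family was chosen and supports nothing further.

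Nr2f1 (ENSMUSG00000069171, mm10 chr13:78188973-78199757, minus strand) had 2261, 2353, 3115 and 2943 normalised reads in wild-type libraries 1 to 4. Knockout-labelled libraries 1 to 4 had 2679, 2299, 2682 and 2635. The knockout-labelled libraries all lay within the range of wild type, which was the wider group. The means were 2668 ± 425 and 2574 ± 185 (n = 4 each), a ratio of 0.965 and a log2 fold change of -0.04 ± 0.119. The difference was smaller than its SE, and its sign was positive without wild type 3 (0.04), without wild type 4 (0.01) or without knockout-labelled library 2 (0.01).

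Nr2f6 (ENSMUSG00000002393, mm10 chr8:71374123-71381960, minus strand) had 289.5, 359, 589.5 and 700.5 normalised reads in wild-type libraries 1 to 4. Knockout-labelled libraries 1 to 4 had 1096, 717, 790 and 837. The groups did not overlap, but the highest wild-type library (700.5) was close to the lowest knockout-labelled library (717), and wild type itself spanned more than a doubling. The means were 485 ± 193 and 860 ± 165, and the log2 fold change was 0.90 ± 0.241. Of the 11558 genes whose mean reached 50, 240 had a higher log2 fold change.

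Nr2f2 and Nr2f6 are thus 2 of 3 family genes whose groups did not overlap, where 27.7% of all genes did not overlap. Nothing is read from that count, since the family was selected on this contrast.

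**Figure D1:**
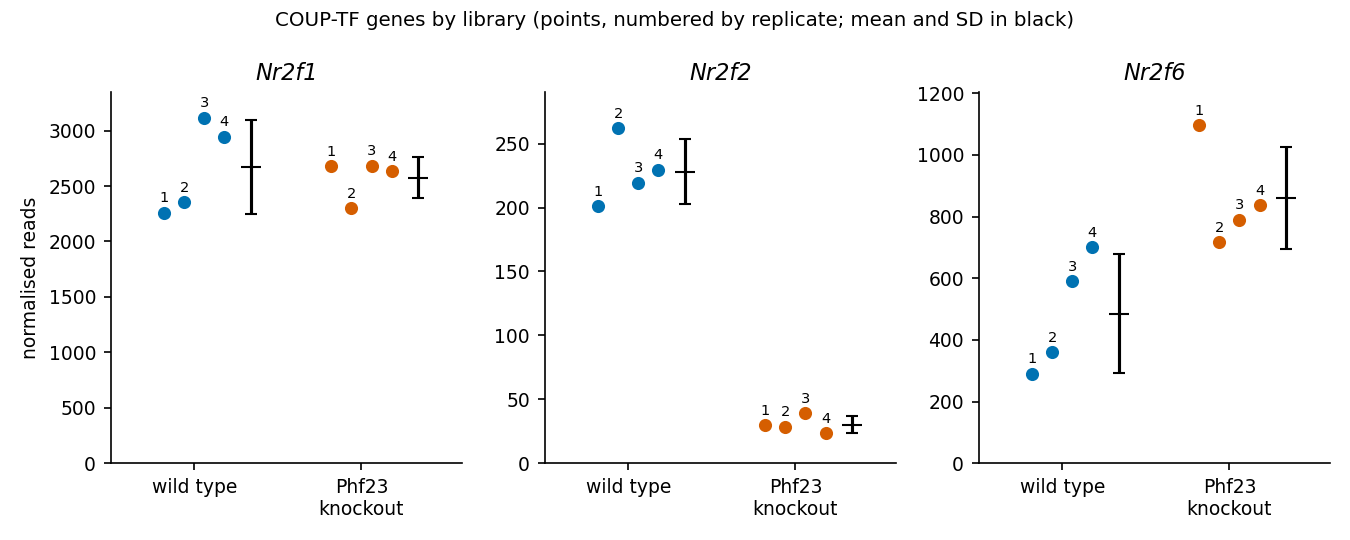
Normalised reads (vertical axes, from 0) of Nr2f1, Nr2f2 and Nr2f6 in the 4 wild-type libraries (blue) and the 4 knockout-labelled libraries (orange), with points numbered by replicate and the mean and SD in black. Nr2f2 lies between 201 and 262 in wild type and between 23.5 and 39.1 in the other group, Nr2f1 overlaps between groups, and wild type 3 and 4 lie close to the knockout-labelled libraries for Nr2f6.

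In wild type Nr2f6 was lower in the libraries with the steeper length slope, which was not so among the knockout-labelled libraries, where the library with the lowest slope (library 2) had the lowest value of Nr2f6 (717). The slope was 0.263, 0.200, 0.079 and 0.062 in wild-type libraries 1 to 4, and -0.243, -0.308, -0.093 and 0.040 in their knockout-labelled counterparts, estimated over the 13265 genes whose mean reached 10. Between wild type 1 and 2 and the knockout-labelled libraries 1 and 2, which had the steepest slopes, the log2 fold change of Nr2f6 was 1.46. Between wild type 3 and 4 and the knockout-labelled libraries 3 and 4 it was 0.34.

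In the same pair of comparisons Nr2f2 gave -2.94 and -2.85, so its difference was about as large in either set of libraries. Nr2f1 gave 0.11 and -0.19, a change of sign. Within wild type, the mean of Nr2f6 was 324 in libraries 1 and 2 and 645 in libraries 3 and 4, and that of Nr2f1 was 2307 and 3029. Nr2f2 had 232 and 225 there.

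The longest annotated transcripts are 2218 nt for Nr2f6, 3207 nt for Nr2f1 and 4222 nt for Nr2f2, with a GC content of 67.3%, 60.2% and 45.3%. Set beside the 200 genes closest to each in length, Nr2f6 (0.90) lay above the 95th percentile of their log2 fold changes (0.72, median 0.22), Nr2f2 (-2.89) far below the 5th percentile (-0.81, median -0.14), and Nr2f1 (-0.04) near the median (0.05). With a trend in length and GC content subtracted from each library, the log2 fold changes of Nr2f1, Nr2f2 and Nr2f6 were -0.26 ± 0.071, -2.71 ± 0.185 and 0.43 ± 0.112, and with the slope as a covariate -0.14 ± 0.164, -3.01 ± 0.303 and 0.37 ± 0.443. What sets the slope was not tested.

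**Figure D2:**
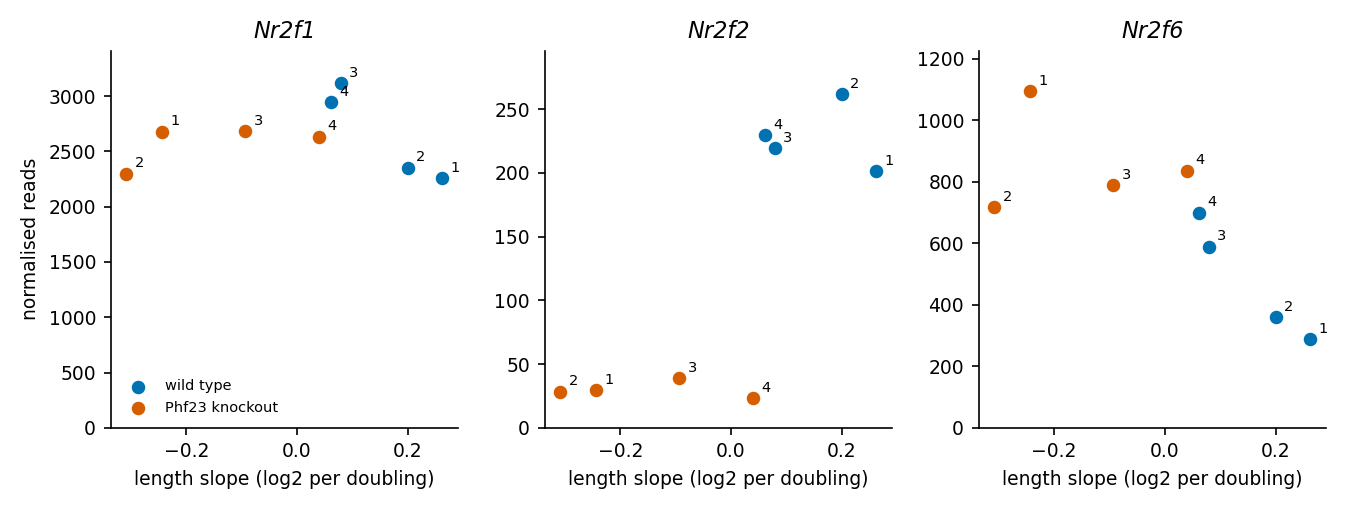
Normalised reads of each gene (vertical axes, from 0) against the length slope of the library (log2 per doubling of transcript length) on the horizontal axes, with wild type in blue, knockout-labelled libraries in orange and points numbered by replicate. The wild-type values of Nr2f6 rise from 289.5 at a slope of 0.263 to 700.5 at 0.062, whereas those of Nr2f2 keep between 201 and 262. The knockout-labelled values of Nr2f6 show no such order, with 717 at -0.308, 1096 at -0.243, 790 at -0.093 and 837 at 0.040.

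Reads of Nr2f6 share their place in the genome with another gene. Ocel1, which codes for a protein with an occludin-like domain, lies on the opposite strand and covers 1622 nt, or 54.4%, of the annotated exons of Nr2f6. The sources used here do not say whether the counting used strand, so reads from the shared stretch cannot be told apart. Ocel1 had 202 ± 46.7 reads (normalised) in wild type and 222 ± 20.4 in the knockout-labelled libraries (log2 fold change 0.16, limma-trend adjusted p = 0.505), a change that was not called. The overlap is smaller for the others: the noncoding genes A830082K12Rik and B130024G19Rik cover 2.42% of the exons of Nr2f1 and 7.46% of those of Nr2f2, and neither was analysed here.

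Levels of different genes were compared per kilobase of annotated exon. In wild type the order was Nr2f1 with 524 ± 83.4 normalised reads per kilobase, Nr2f6 with 162 ± 64.6 and Nr2f2 with 26.4 ± 2.96 (n = 4). The wild-type ranges of neighbours in this order did not overlap: Nr2f1 was at least 444, Nr2f6 ran from 97.1 to 235 and Nr2f2 was at most 30.4. In the knockout-labelled libraries the order was the same, at 505 ± 36.3, 288 ± 55.2 and 3.50 ± 0.755, again with no overlap between genes. The order was also the same per kilobase of longest transcript and of coding sequence.

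The makeup of the family's RNA differed between the groups more than its total. The summed normalised reads of the 3 genes were 3381 ± 605 in wild type and 3464 ± 314 in the knockout-labelled libraries, and the ranges overlapped. Nr2f2 made up 7.31%, 8.81%, 5.59% and 5.93% of the recovered reads of the 3 genes in wild type 1 to 4. In the knockout-labelled libraries 1 to 4 it made up 0.784%, 0.934%, 1.11% and 0.672%. By exact binomial (Clopper-Pearson) 95% intervals, which cover counting error only, the lowest wild-type share (library 3) lay between 4.85% and 6.41%, and all 4 knockout-labelled intervals lay below that.

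The mean share of Nr2f2 was thus 6.91 ± 1.47% against 0.876 ± 0.191%. Nr2f1 held the largest share in every library, with a mean of 79.2 ± 2.53% in wild type and 74.4 ± 2.71% in the knockout-labelled libraries. Nr2f6 went from 13.9 ± 3.34% to 24.7 ± 2.80%, so that the mean ratio of Nr2f6 to Nr2f1 reads was 0.177 in wild type and 0.333 in the knockout-labelled libraries. Within wild type this ratio rose from 0.128 in library 1 to 0.238 in library 4, and in the knockout-labelled libraries it ran from 0.294 to 0.409. These shares use read counts without a length correction, so they describe composition and not relative molecule numbers.

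Nuclear receptors share a DNA-binding domain and a ligand-binding domain, and 40 of the 49 mouse genes listed for them were measured. By level per kilobase, Nr2f1 ranked 1 of 40 in both groups, ahead of the thyroid hormone receptor gene Thra in wild type. Nr2f6 ranked 9 in wild type and 6 in the knockout-labelled libraries, and Nr2f2 ranked 21 and 33. By log2 fold change over all 8 libraries, Nr2f2 was the lowest and Nr2f6 the highest of the 40, again as a description. Nr2f6 was below the receptor gene Rara with the length and GC trend subtracted (0.43 against 0.57). It was also below Rara with the slope as a covariate (0.37 against 0.78) and in libraries 3 and 4 alone (0.34 against 0.74).

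Of the other 37 receptors, limma-trend called 3 higher (Rara, Nr1h2 and Esrra) and 8 lower in the knockout-labelled libraries, against 14.8% of all genes in each direction, and their median log2 fold change was -0.05 (all genes 0.00). Within the NR2 subfamily, Nr2c1 (TR2), an orphan receptor of the testicular receptor pair, had a mean of 301 in wild type and 291 in the knockout-labelled libraries. Nr2e1 (Tlx), which keeps neural stem cells proliferating, had 550 ± 50.9 and 582 ± 102. Neither was called, with log2 fold changes of -0.05 and 0.07. Without knockout-labelled library 1, limma-trend called 6 of the other receptors in place of 11. The balance turned to 4 higher and 1 lower with the length and GC trend subtracted, and the slope covariate left 1 higher and 0 lower (4 lower at an unadjusted p under 0.05).

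Nr2c2 (TR4), the partner of Nr2c1, fell from 815 ± 119 to 301 ± 189 (log2 fold change -1.67 ± 0.373, limma-trend adjusted p = 0.0106), the lowest of the other 37. This call ended with the length and GC trend subtracted (-1.23) and with the slope as a covariate (-0.14), and its longest transcript is 7647 nt. Rara, a retinoic acid receptor that pairs with retinoid X receptors, rose from 187 ± 9.99 to 315 ± 20.1 (0.75 ± 0.115, limma-trend adjusted p = 0.00249) and was called in every setting tried. Nr1d2 (Rev-erb beta), a heme-binding repressor of the circadian clock, fell from 1144 to 746 (-0.63, limma-trend adjusted p = 0.00584), a call that ended with the slope as a covariate.

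**Figure D3:**
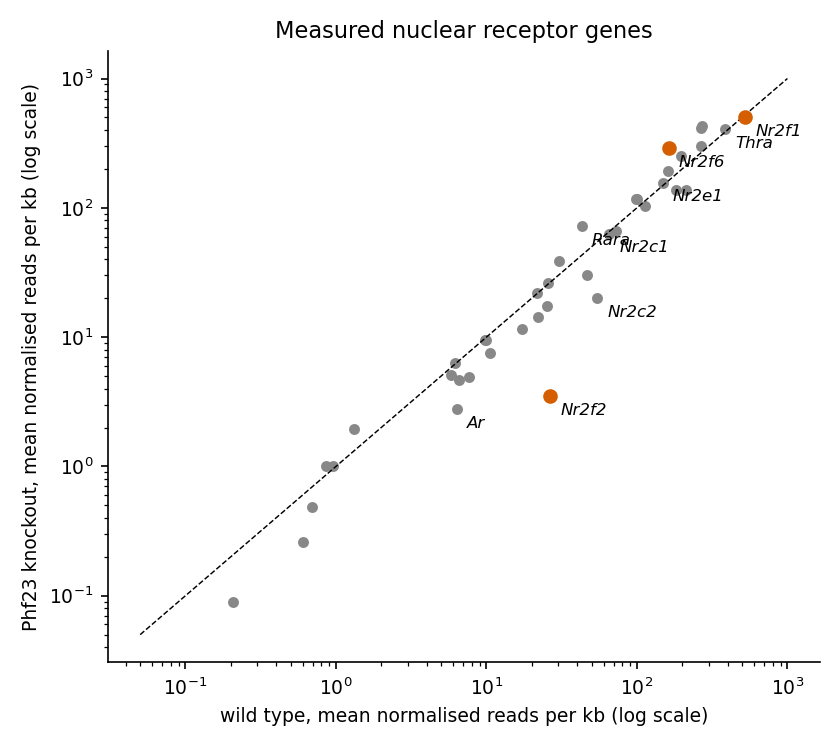
Mean normalised reads per kilobase of annotated exon in wild type (horizontal axis) and in knockout-labelled libraries (vertical axis), both on log scales, for the 40 measured nuclear receptor genes, with the 3 COUP-TF genes in orange and the dashed line marking equal levels. Nr2f1 lies on the line at the top (524 and 505), Nr2f2 lies far below it (26.4 and 3.50) and Nr2f6 above it (162 and 288).

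Proteins that COUP-TFs are known to work with were described from a list of 13 cofactors, all of them measured. Limma-trend called 1 higher and 5 lower (Bcl11b, Ncor1, Ncoa2, Ncoa1 and Ep300) in the knockout-labelled libraries, 46.2% of the list against 29.6% of all genes, and the list's median log2 fold change was -0.34. Bcl11b (CTIP2), a zinc finger partner first described by its binding to COUP-TFs, fell from 150 ± 32.9 to 76.6 ± 17.6 normalised reads (-0.96 ± 0.213, limma-trend adjusted p = 0.00931). Ncor1, a corepressor that recruits histone deacetylases to nuclear receptors, fell from 5025 ± 878 to 2953 ± 756 (-0.78, limma-trend adjusted p = 0.00895).

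The coactivator gene Ncoa2 fell from 1253 to 809 (-0.65, limma-trend adjusted p = 0.00957). Zfpm1 (FOG1), a zinc finger cofactor, rose from 247 ± 70.6 to 377 ± 68.1 (0.64, limma-trend adjusted p = 0.0299), but its groups nearly met and the call ended without any 1 of wild type 1 or 2 or knockout-labelled library 1, 2 or 3 (0.50 to 0.71). Its relative Zfpm2 (FOG2), the form known to bind COUP-TFII, had 783 ± 87.3 and 645 ± 94.6 and was not called. The histone deacetylase genes Hdac1 (2149 and 2292) and Hdac3 (2013 and 2002) were not called either.

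The cofactor counts differed between the sets of libraries. In wild type 3 and 4 against the knockout-labelled libraries 3 and 4, limma-trend called 0 of 13 (3 lower and 0 higher at an unadjusted p under 0.05), with Ncor1 at -0.28 and Bcl11b at -0.52, and with the slope as a covariate it called 0 as well (0 at an unadjusted p under 0.05). Leaving out wild type 1, wild type 2, knockout-labelled 1 or knockout-labelled library 2 left 3 of the 6 calls in each case. The longest transcripts of Ncor1, Ncoa2 and Bcl11b, at 9037, 8171 and 8111 nt, are well above the median of all genes (3318 nt).

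Of 18 genes proposed as COUP-TF targets in brain and vessels, 17 were measured, and 3 were called higher and 3 lower in the knockout-labelled libraries by limma-trend, 35.3% of the list against 29.6% of all genes, with a median log2 fold change of -0.04. The proposed targets were taken from general knowledge and include genes that COUP-TFs are said to activate and to repress, so no direction is set for the list. Without knockout-labelled library 1 the count called was 3 in place of 6. Nrp1, a receptor for semaphorins and vascular endothelial growth factor and a proposed target of COUP-TFII, fell from 468 ± 59.3 to 267 ± 80.4 (-0.84, limma-trend adjusted p = 0.0093), a call that ended with the slope as a covariate (-0.20). Its relative Nrp2 had 733 ± 31.3 and 548 ± 152 and was not called (limma-trend adjusted p = 0.0524).

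Angpt1, the angiopoietin ligand of the Tie2 receptor, fell from 104 ± 18.6 to 52.7 ± 3.47 (-0.95, limma-trend adjusted p = 0.00559). Its log2 fold change was -1.03 with the slope as a covariate, where it was no longer called. Spry1 and Spry2, feedback inhibitors of receptor tyrosine kinase signalling, rose from 3292 ± 290 to 4791 ± 283 (0.54, limma-trend adjusted p = 0.00469) and from 3343 ± 335 to 4520 ± 468 (0.44, limma-trend adjusted p = 0.0137). Spry1 was no longer called with the length and GC trend subtracted (0.34), nor Spry2 without knockout-labelled library 1 (0.40), and neither with the slope as a covariate (0.53 and 0.36). The cortical patterning genes Pax6 (416 to 491 and 463 to 504) and Emx2 (542 to 622 and 603 to 648), set beside Nr2f1 in area patterning, were not called.

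Retinoic acid signalling is the pathway that meets COUP-TFs most directly, because they compete with retinoic acid receptors for half-sites and for retinoid X receptors. Of 19 listed genes 15 were measured, and limma-trend called 3 higher and 1 lower in the knockout-labelled libraries, 26.7% of the list against 29.6% of all genes, with a median log2 fold change of 0.32. That median was 0.06 in libraries 3 and 4, 0.47 in libraries 1 and 2, and 0.08 with the length and GC trend subtracted. Fabp5, a fatty acid-binding protein that also carries retinoic acid, rose from 7720 ± 727 to 13324 ± 1989 (0.78, limma-trend adjusted p = 0.00282) and was no longer called with the slope as a covariate (0.35). Aldh1a1, a retinaldehyde dehydrogenase that makes retinoic acid, fell from 197 ± 22.2 to 86.0 ± 24.3 (-1.22 ± 0.194, limma-trend adjusted p = 0.00281). Aldh1a1 and Rara were called in every setting tried. Of the receptors that COUP-TFs share half-sites and partners with, Rarb (135 and 137), Rarg (129 and 166), Rxra (620 and 564) and Rxrb (642 and 767) were not called, nor was the retinoic acid-degrading enzyme gene Cyp26b1 (26.0 and 27.2).

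The caudal ganglionic eminence is the part of the ventral forebrain where Nr2f2 marks progenitors and interneurons, and 10 of 12 genes listed for it were measured. Limma-trend called 0 higher (0 at an unadjusted p under 0.05, and 0 called higher by edgeR, DESeq2 and limma-voom) and 1 lower, against 14.8% of all genes in each direction. In libraries 3 and 4 alone, 1 was called higher and 0 lower (1 at an unadjusted p under 0.05). The gene called lower over all 8 libraries was Prox1, a homeobox factor of these interneurons, at 939 ± 127 and 627 ± 136 (-0.60, limma-trend adjusted p = 0.0142). The list had 2 calls without wild type 1. The call of Prox1 ended without knockout-labelled library 1 (-0.55), with the length and GC trend subtracted (-0.14) and with the slope as a covariate (-0.02), and its longest transcript is 7913 nt. Sp8, a zinc finger factor of the same region, ran from 10.6 to 32.9 in wild type and from 20.5 to 28.4 in the knockout-labelled libraries and was not called.

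Nr2f2 is also expressed in endothelial, mural and mesenchymal cells, so markers of those cells are given beside it. Of 12 endothelial markers 8 were measured, with a summed level of 205 to 300 in wild type and 212 to 241 in the knockout-labelled libraries, and the defining markers Cdh5, Tie1 and Cldn5 were not analysed here. Within them Flt1 fell from 30.6 ± 2.40 to 8.31 ± 5.27 (limma-trend adjusted p = 0.00769) and Emcn rose from 5.62 ± 3.25 to 15.1 ± 4.90 (limma-trend adjusted p = 0.0431). The slope covariate left 0 of the 8 called (1 higher and 1 lower at an unadjusted p under 0.05). The call of Emcn also ended with library size only and in libraries 1 and 2 alone. Of 13 mesenchymal and mural markers 7 were measured, with a sum of 237 to 339 in wild type and 489 to 532 in the knockout-labelled libraries, and Pdgfrb, Col3a1, Lum and Dcn were not analysed here.

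Most of that sum was Foxc1, a forkhead factor of mesenchyme, which rose from 212 ± 39.4 to 426 ± 23.2 (limma-trend adjusted p = 0.0013). It was the only 1 of the 7 mesenchymal and mural markers called. With the slope as a covariate 0 were called (2 higher and 0 lower at an unadjusted p under 0.05). The 8 neuron markers summed to 15606 to 20958 in wild type and 9560 to 12460 in the knockout-labelled libraries, but most of that sum was Map2, a microtubule-associated protein gene, which fell from 17464 to 10077 by limma-trend. Of the other 7, Rbfox3 was called higher, and the rest, among them Tubb3 (175 and 171) and Dcx (159 and 164), were not called. Neither Map2 nor Rbfox3 was called with the slope as a covariate, which left 0 of the 8 (2 higher and 3 lower at an unadjusted p under 0.05). The 8 oligodendrocyte lineage markers summed to 50284 to 71826 and 62472 to 75835. Of 8 microglia markers 1 was measured, P2ry12, at 15.7 to 48.4 and 14.4 to 17.9, and of 9 markers of the cortical hem and choroid plexus, 2 were measured, with a sum of at most 13.6 in any library. The part of cell composition in the values of Nr2f2 and Nr2f6 was not tested.

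The genes around each family member were counted within 500 kb in GENCODE M21. Around Nr2f2, 19 genes are annotated and 0 were measured, so its neighbourhood gives no comparison. Around Nr2f1, 16 are annotated and 2 were measured. Fam172a had 974 ± 70.2 and 836 ± 21.3 and was not called (-0.22), and the noncoding gene 3110006O06Rik, named after its values were seen, had a mean of 7.14 ± 3.47 in wild type and 0.993 ± 0.800 in the knockout-labelled libraries (limma-trend adjusted p = 0.0169). No gene near Nr2f1 was called with the slope as a covariate or in either set of 2 libraries a group, nor was any gene near the 3 called lower without wild type 2.

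Nr2f6 lies in a gene-dense stretch with 46 annotated genes within 500 kb, of which 28 were measured. Limma-trend called 14 of the 28 higher in the knockout-labelled libraries, against 14.8% of all genes, and 0 lower (1 at an unadjusted p under 0.05, and 0 called lower by edgeR, DESeq2 and limma-voom), with a median log2 fold change of 0.38. Of the 28, 2 had a log2 fold change above the 0.90 of Nr2f6: Tmem221, at a low level of 8.23 ± 3.55 in wild type (1.36), and Mrpl34. Mrpl34, which codes for a protein of the mitochondrial ribosome, rose from 834 ± 184 to 1690 ± 534 (0.99 ± 0.218, limma-trend adjusted p = 0.00922). Abhd8, a hydrolase-like gene, rose from 1616 ± 456 to 2767 ± 218 (0.82, limma-trend adjusted p = 0.00718), and Babam1, a subunit of the BRCA1-A complex, from 1097 ± 83.3 to 1653 ± 255 (0.58, limma-trend adjusted p = 0.00744).

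The neighbour counts differed between the sets of libraries. Mrpl34, unlike Nr2f6, followed the order of the slopes in the knockout-labelled libraries too, with 2258, 1995, 1429 and 1079 in libraries 2, 1, 3 and 4. In wild type 3 and 4 against the knockout-labelled libraries 3 and 4, 2 of the 28 were called higher with a median of 0.21, and in libraries 1 and 2 of each group 17 were called higher and 3 lower with a median of 0.73. With the slope as a covariate limma-trend called 0 (1 higher at an unadjusted p under 0.05), Mrpl34 was at 0.03 and Babam1 at 0.17, and with the length and GC trend subtracted 9 were called higher and 1 lower. Without wild type 1, wild type 2 or knockout-labelled library 1, the calls near all 3 genes went from 15 to 8, 6 and 7. The median longest transcript of the 28 was 2780 nt against 3318 nt for all genes.

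**Figure D4:**
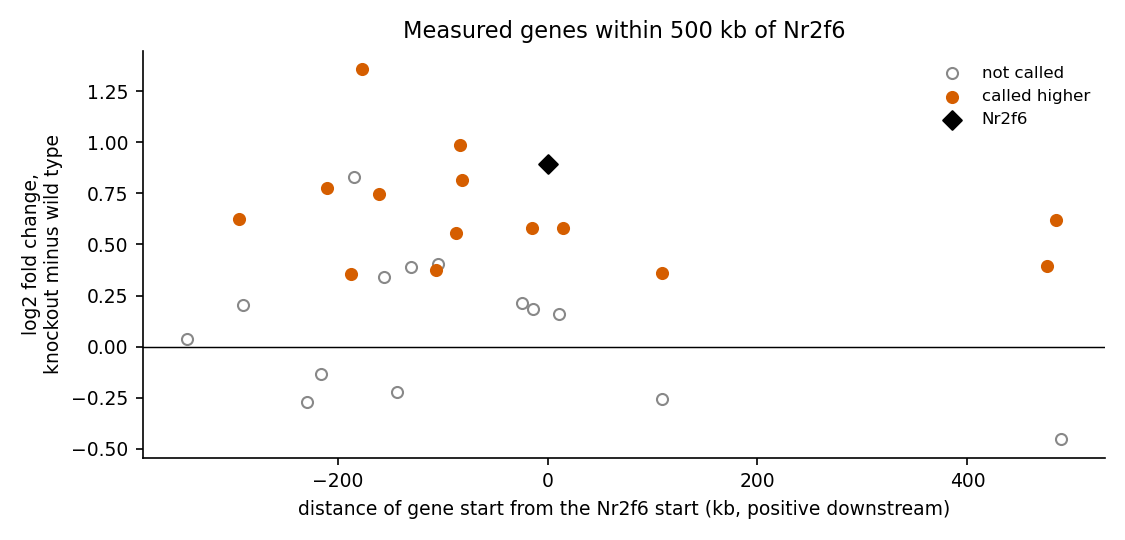
Log2 fold change from wild type to knockout-labelled libraries (vertical axis) of the 28 measured genes within 500 kb of Nr2f6 against the distance of their start from that of Nr2f6 in kb (horizontal axis), with called genes filled, genes not called open, and Nr2f6 as a black diamond. The 14 called genes are all above 0 and lie on both sides of Nr2f6 at 0.90.

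For each gene, the 5 genes most like it in pattern were found by Pearson's r of log2(value + 1) over the 8 libraries, among the 11212 genes left of those whose mean reached 50 once predicted and clone-derived names were dropped. For Nr2f2 they were Bves (0.991), Atl1 (0.988), Plxnc1 (0.986), Angpt2 (0.986) and Mier3 (0.985), all lower in the knockout-labelled libraries. After the genotype means were removed their r with Nr2f2 fell to between 0.201 (Plxnc1) and 0.762 (Bves), so the likeness lies mostly in the genotype difference. They were 1.28-fold (Mier3) to 2.01-fold (Atl1) lower by their means, against 7.55-fold for Nr2f2.

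For Nr2f6 the most alike were Cdkn2c (0.995), Itm2c (0.994), Clasrp (0.994), Agap3 (0.993) and Pex6 (0.990). Here r stayed between 0.978 and 0.995 after the genotype means were removed, so these genes followed Nr2f6 from library to library within each group. In all, 121 genes had an r above 0.95 with Nr2f6, 49 with Nr2f2 and 0 with Nr2f1.

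For Nr2f1 the most alike were Fbxw8 (0.921), Snd1 (0.916), Mnt (0.912), Tut1 (0.908) and Srsf2 (0.907). Their r was 0.907 to 0.937 after the genotype means were removed, and none was called by limma-trend, as their means were close in both groups. All these values are over 8 libraries that share depth and length slope within a library, and they are given with no p.

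**Figure D5:**
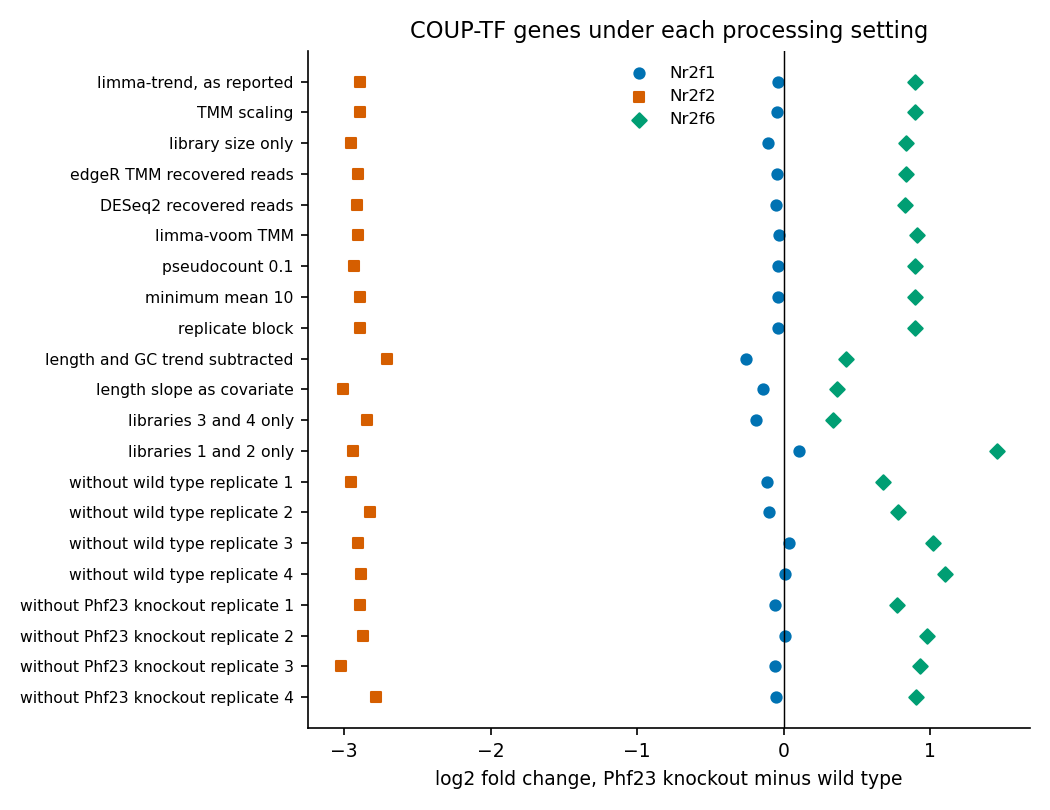
Log2 fold change from wild type to knockout-labelled libraries (horizontal axis) of Nr2f1, Nr2f2 and Nr2f6 under each processing setting (vertical axis). Nr2f2 keeps between -3.02 and -2.71, Nr2f6 runs from 0.34 to 1.46 and Nr2f1 lies on both sides of 0, from -0.26 to 0.11.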

How the data were processed

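PolyA RNA of 8 libraries was sequenced after TRIzol lysis and a NEBNext Ultra RNA kit, per the labels' protocols. The submitters' processing notes name mm10, STAR 2.7.1a, DESeq2 1.38.3, fastp 0.23.4 and FastQC 0.12.1. The sources used here do not give the counter, annotation, strand or gene filter. Each deposited signal value was a read count over the size factor of its library, since whole reads were recovered for 100% of values (tolerance 1e-04 reads). After 64 repeated rows were dropped from 15602, 15538 genes remained, the lowest with 11 reads in all.

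Log2(value + 1) was fitted with limma-trend (limma 3.58.1, R 4.3.3, robust, two-sided, genotype only, Benjamini-Hochberg over all genes, called at FDR under 0.05). In a check on simulated data for this comparison over 15538 genes, 94% of 2-fold and 99% of 4-fold changes were recovered. The simulated libraries had a preset spread and no length slope, so the check says nothing of calls that change with the slope. Alternatives were TMM and library-size scaling, limma-voom, edgeR 4.0.16, DESeq2 1.42.0, a replicate block, a minimum mean of 10, a pseudocount of 0.1, a loess trend (span 0.3) in length and GC content subtracted, the length slope as a covariate, libraries 1 and 2 or 3 and 4 alone, and each library left out. Coding sequences were translated from GENCODE M21 and aligned with Biopython 1.88 (BLOSUM62). Members, lists and alternatives were chosen with earlier results of these data known. Named genes were the 3 members, the NR2 subfamily, up to 4 genes of each list with the lowest FDR, markers, the 5 genes most alike and neighbours with a mean of at least 10; list genes named beyond these were chosen after their values were seen. A few further genes are not reported here.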

Additional observations from a re-analysis of the deposited data

Results flagged for a closer look

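Of 96 groups of 4 libraries (48 genes in each genotype), 4 held a library set apart from the other 3 by Dixon's ratio at its 95% critical value, where chance gives about 5% of groups. Nr2f1 was low in knockout-labelled library 2, at 2299 normalised reads against 2635 to 2682 in the other knockout-labelled libraries. The cofactor gene Bcl11b was low in wild type 3, at 101 against 165 to 170. Ano8, a neighbour of Nr2f6, was high in knockout-labelled library 1, at 3199 against 2584 to 2636. Tmem221, also near Nr2f6, was high in wild type 3, at 13.5 against 5.76 to 6.87.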

How the results depend on the processing

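The log2 fold change of Nr2f2 kept its sign in all settings (-3.02 to -2.71; -3.02 to -2.78 with 1 library left out). Nr2f6 stayed above 0 but moved to 0.43 (length and GC trend subtracted), 0.37 (slope covariate), 0.34 (libraries 3 and 4 only) and 1.46 (libraries 1 and 2 only), and ran from 0.68 to 1.10 with 1 library left out. Nr2f1 was -0.26 with the trend subtracted and -0.12 to 0.04 with 1 library left out. Depth limits Nr2f2, with 24 to 42 reads in knockout-labelled libraries.

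Per kilobase of longest transcript, the levels in wild type and in knockout-labelled libraries were 832 and 803 (Nr2f1), 54.0 and 7.15 (Nr2f2) and 219 and 388 (Nr2f6), and per kilobase of coding sequence 2113 and 2038, 183 and 24.3, and 413 and 733. The share of Nr2f2 among Nr2f1 and Nr2f2 reads alone was 1.16% in knockout-labelled libraries.

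Calls over all genes, 4593 in the report, were 2996 with the trend subtracted (1903 higher, 63.5%, against 50.1% in the report), 170 with the slope covariate, 1422 in libraries 3 and 4 and 7202 in libraries 1 and 2, and 1884 to 5861 with 1 library left out. With library size only, 39.9% of calls were higher. A replicate block, whose numbers do not pair the libraries (r of same-numbered libraries -0.33 to -0.133, none matching its own number best), gave 333 calls over all genes, 1 other nuclear receptor, 0 cofactors, 2 proposed targets, 0 caudal eminence genes and 0 neighbours.

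In the order trend subtracted, slope covariate, calls were 5 and 1 of the other nuclear receptors, 2 and 0 cofactors, 3 and 1 proposed targets, and 0 and 0 caudal eminence genes, with 0 neighbours for the covariate. Libraries 3 and 4 alone gave 3 nuclear receptors, 0 cofactors and 2 neighbours, and libraries 1 and 2 gave 10 cofactors. With 1 library left out, counts ran from 6 to 12 nuclear receptors, 3 to 8 cofactors, 3 to 9 targets, 4 to 5 retinoic acid genes, 0 to 2 caudal eminence genes and 6 to 18 neighbours. Of 27 called genes named by the rule and reported here, the slope covariate kept 2. Under it Use1 (-0.16) and Pgls (-0.026) had a log2 fold change below 0 and were not called; the cause was not tested.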
